A study of Mus musculus with 2 samples.

Results

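The 8 genes described here, *Csf1*, *Il34*, *Csf1r*, *Csf2ra*, *Csf2rb*, *Csf3r*, *Flt3* and *Flt3l*, encode myeloid growth factors and their receptors, and were chosen by name among 31053 genes counted in single kidney cells. The scRNA-seq data hold 1 library of pooled kidneys from old and 1 from young MRL-lpr mice, a lupus-prone strain with the lpr mutation of the death receptor gene *Fas*. Both groups carry that mutation, and no other strain or treatment enters the comparison. Before loading on the 10x 3′ v3.1 platform, cells were taken through a density gradient, a magnetic enrichment of innate lymphoid cells (ILCs) and a live-cell sort. The share of a class in a library is therefore not its frequency in the kidney. With 1 library per age and animals pooled, no variation between mice can be estimated, and differences between the libraries are described without a test.

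Colony-stimulating factor 1 (CSF-1) and interleukin-34 are separate ligands of the same receptor, CSF-1R, which maintains macrophages and monocytes, and CSF-1 is known to drive kidney disease in MRL-lpr mice. Granulocyte-macrophage CSF binds the alpha chain encoded by *Csf2ra* and the beta chain encoded by *Csf2rb*, which also serves the receptors of interleukin-3 and interleukin-5. *Csf3r* encodes the receptor of granulocyte CSF, which supports neutrophils, and *Flt3l* encodes the ligand of FLT3, which supports dendritic cells and their progenitors.

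Barcodes under 200 genes or over 20% mitochondrial UMIs (unique molecular identifiers) were dropped, which left 11429 young cells with a median of 7881 UMIs and 10232 old cells with a median of 6933 UMIs. A cell entered a class when it had UMIs of at least 3 markers of exactly 1 of 17 marker lists, none of which holds a gene of the set, and 81.9% of young and 85.7% of old cells entered one. Class names stand for cells chosen in this way (T-like cells, proximal tubule-like cells and so on) and are written without the suffix. The libraries shared 26 barcodes among the cells kept. The study's methods give female mice unless specified otherwise, whereas 50.8% of young and 40.6% of old cells had UMIs of Y-linked genes and none of *Xist*, and 14.6% and 29.1% had *Xist* and no Y-linked UMI. Ratios between the libraries were therefore also computed within each of these kinds of cell. Levels are CPM, in which a gene's UMIs over all cells of a class were scaled to the class total, with exact Poisson 95% intervals in parentheses, and all intervals cover counting error only.

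**Figure D1:**
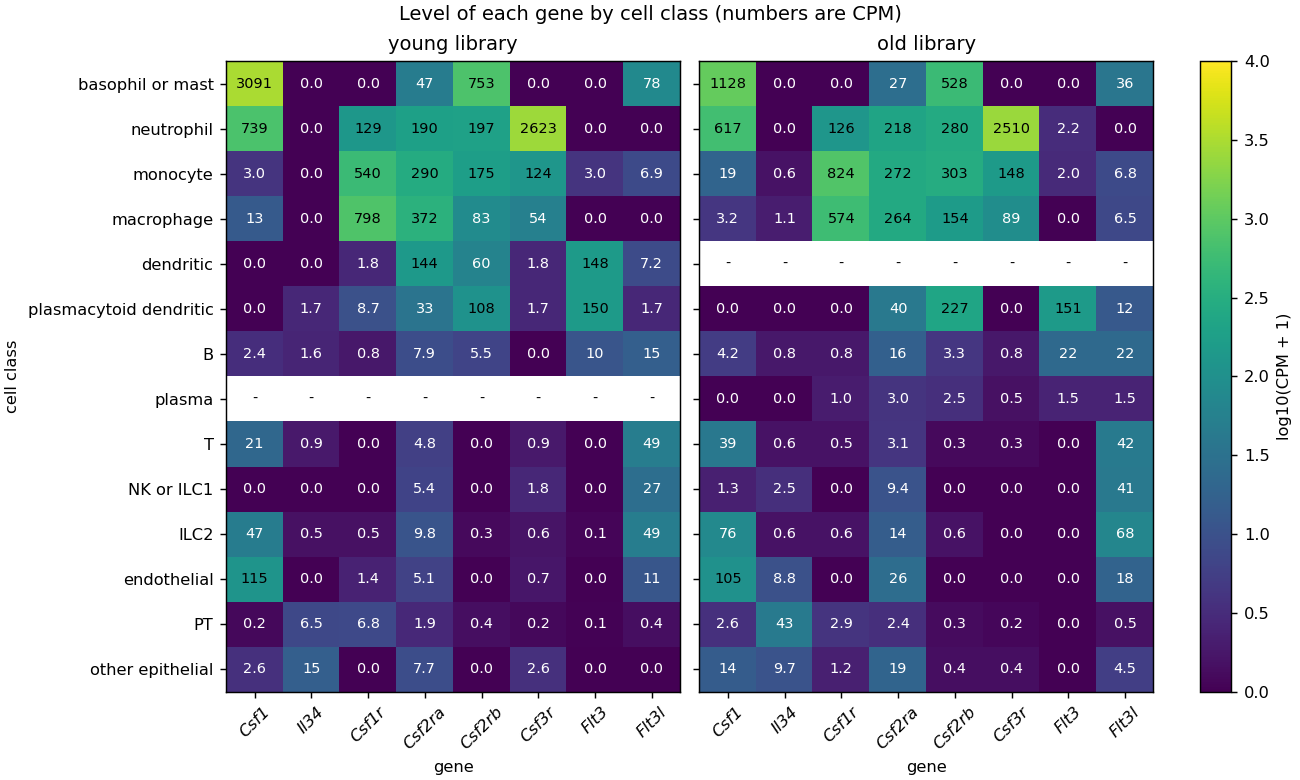
Level of the 8 genes in each class of at least 10 cells in the young (left) and old (right) library. Rows are classes, columns are genes, printed numbers are CPM, and the colour is log10(CPM + 1). A dash marks a class with fewer than 10 cells. *Csf1* stood highest in the basophil or mast class (3091 and 1128 CPM) and *Csf3r* in neutrophils (2623 and 2510 CPM).

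*Csf1* (ENSMUSG00000014599) lies on the minus strand of chromosome 3, from 107741048 to 107760469 (GRCm38). Its highest level was found in the smallest class described, basophil or mast cells. The young library had 14 such cells and the old library 11, and *Mcpt8*, a basophil protease, was found in 14 and 10 of them. Of the other markers, *Cyp11a1* was found in 14 and 11, *Ms4a2* in 13 and 10, *Cpa3* in 12 and 11, *Fcer1a* in 8 and 10 and *Prss34* in 1 and 2. The genes highest in this class relative to the other classes also included *Mcpt1*, *Mcpt2*, *Mcpt9* and *Tpsab1*. Basophils and mast cells were not separated. The 14 young cells held 197 *Csf1* UMIs, 3091 CPM (2674–3554), and the 11 old cells held 124 UMIs, 1128 CPM (938–1345). All 14 young cells had a *Csf1* UMI, from 1 to 39 per cell with a median of 11. In the old library 10 of 11 cells had one, with a median of 7 and a highest value of 36. In both libraries this class exceeded neutrophils, the next in order, by 4.18-fold in the young (log2 2.07, 1.78–2.35) and 1.83-fold in the old library (log2 0.87, 0.55–1.18). The class had fewer than 20 cells per library, so no ratio between the libraries was computed, and it was included after its values had been seen.

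Neutrophils held the next level of *Csf1*. It was 739 CPM (644–844) over 122 young cells and 617 CPM (547–694) over 119 old cells. Of young and old neutrophils, 63.9% and 54.6% had a *Csf1* UMI, at medians of only 2212 and 3370 UMIs per cell. Thinning each cell to 1000 UMIs, for which 1 young and 2 old neutrophils were too shallow, gave 40.5% and 35.0%. In proximal tubule (PT) cells, which served as the background of free RNA for leukocyte genes, thinning gave 0.0321% and 0.141%, at medians of 14773 and 15355 UMIs, with 168 young and 43 old cells left out. The old over young ratio in neutrophils was log2 −0.26 (−0.52 to 0.00) over all cells, an interval that reached 0. In neutrophils with Y-linked and no *Xist* UMIs it was −0.49 (−0.90 to −0.08). With cells of both the neutrophil and the monocyte gate counted as neutrophils, the levels were 321 and 260.0 CPM and the ratio −0.30 (−0.51 to −0.10). The cells added in this way included some that also passed a further gate. In the old library 10 cells passed both gates and the PT gate, and no other, at a median of 41022 UMIs. Of these, 5 were called doublets.

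Endothelial cells, ILC2s and T cells followed at lower levels. Endothelial cells had 115 CPM (97.8–134) of *Csf1* in the young library and 105 CPM (54.4–184) in the 17 cells of the old library. The old library's endothelial and ILC2 levels could not be separated (log2 0.48, −0.51 to 1.33), while every other neighbouring pair from the basophil or mast class down to T cells had an interval without 0 in both libraries. ILC2s, lymphocytes known for type 2 cytokines, had 47.2 CPM (42.5–52.3) in the young against 75.7 CPM (63.4–89.5) in the old library, a log2 ratio of 0.68 (0.39–0.97). That ratio depended on the kind of cell, being 0.18 (−0.28 to 0.61) in ILC2s with Y-linked and no *Xist* UMIs and 1.21 (0.69–1.72) where *Xist* and no Y-linked UMIs were seen. T cells had 21.0 CPM (15.4–27.8) in the young against 39.4 CPM (36.8–42.1) in the old library, a log2 ratio of 0.91 (0.49–1.36). B cells had 3 young and 5 old *Csf1* UMIs, NK or ILC1 cells 0 and 2, and plasmacytoid dendritic cells none in either library.

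Because cell numbers differed, the class that held most *Csf1* transcripts was not the class with the highest level. In the young library ILC2s held 23.1% of all *Csf1* UMIs, neutrophils 13.6%, basophil or mast cells 12.3% and endothelial cells 9.94%. In the old library T cells held 37.4%, neutrophils 12.1%, PT cells 7.55%, ILC2s 5.85% and basophil or mast cells 5.38%. T cells numbered 429 in the young and 3759 in the old library, and ILC2s 1387 and 320. Cells that passed the gates of several classes held a further 30.8% and 21.7%.

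Within T cells, *Csf1* was highest in old cells with a coreceptor. T cells with *Cd4* and no *Cd8a* or *Cd8b1* UMI had 27.8 CPM (16.2–44.5) over 110 young cells and 60.4 CPM (54.5–66.7) over 1104 old cells. T cells with *Cd8a* or *Cd8b1* only had 16.7 CPM (9.14–28.1) over 144 young cells and 47.6 CPM (42.9–52.7) over 1095 old cells. T cells with neither had 20.4 CPM (11.7–33.1) over 167 young cells and 9.89 CPM (7.66–12.6) over 1476 old cells. The intervals of the 3 kinds of T cell overlapped in the young library, whereas in the old library the cells with neither stood apart. Old *Cd4* cells exceeded old cells with neither by log2 2.61 (2.23–3.01) and old *Cd8* cells by 2.27 (1.89–2.66). Coreceptor UMIs can be missed in shallow cells, and old cells with neither had a median of 3994.5 UMIs against 5177.5 and 5947 in the *Cd4* and *Cd8* cells. T cells that lack both coreceptors are known to accumulate in mice with the lpr mutation. Here cells with neither were 167 of 429 young and 1476 of 3759 old T cells, a similar share in both libraries.

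*Flt3l* split the same T cells differently. In *Cd4* cells its level was 26.1 CPM (14.9–42.5) in the young against 46.1 CPM (41.0–51.7) in the old library. In *Cd8* cells it was 56.1 CPM (41.2–74.6) and 55.0 CPM (49.9–60.4). In cells with neither it was 59.9 CPM (44.0–79.7) and 24.2 CPM (20.6–28.2), so the young cells with neither were above the young *Cd4* cells and the old cells with neither were below both other kinds. *Csf1* and *Flt3l* UMIs occurred together in 132 of the 3759 old T cells and in 7 of the 429 young ones. A *Flt3l* UMI was found in 28.9% of old T cells with *Csf1* and 17.7% of those without, against 21.2% and 22.5% of the young ones. The part of depth in these shares was not tested.

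**Figure D2:**
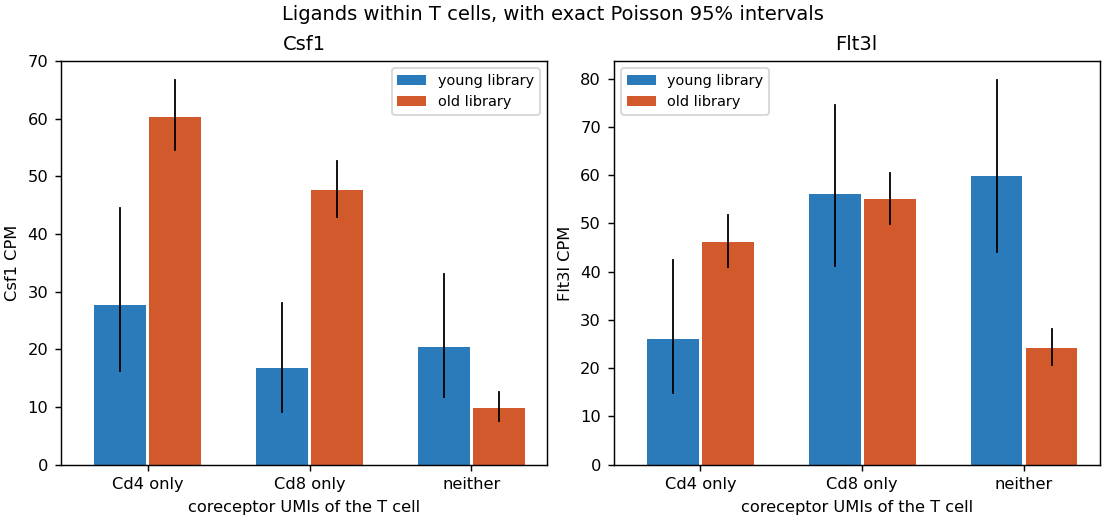
*Csf1* (left) and *Flt3l* (right) in T cells split by coreceptor UMIs. Bars are CPM, starting at 0, in the young (blue) and old (orange) library, and lines are exact Poisson 95% intervals. For *Csf1* the old *Cd4* (60.4) and *Cd8* (47.6) bars stand above the old bar of cells with neither (9.89), while the 3 young intervals overlap.

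*Il34* (ENSMUSG00000031750) lies on the minus strand of chromosome 8, from 110741829 to 110805924, and overlaps *Gm15894* and *Gm15895* on the other strand. It was a tubular transcript in these data. PT cells held 88.8% (86.5–90.9%, exact Clopper-Pearson) of the young and 90.1% (89.0–91.1%) of the old *Il34* UMIs. In PT cells its level was 6.50 CPM (6.04–6.98) in the young against 43.0 CPM (41.5–44.6) in the old library, 6.62-fold higher in the old (log2 2.73, 2.61–2.85). Of PT cells, 8.18% in the young and 37.3% in the old library had an *Il34* UMI, and 0.513% and 3.74% after thinning. B cells, the background for tubular genes, had 2 young and 1 old *Il34* UMIs, 1.58 and 0.833 CPM, at medians of 3776 and 5939.5 UMIs. Other epithelial cells had 15.4 CPM (5.65–33.5) from 6 UMIs in 31 young cells and 9.71 CPM (6.22–14.5) from 24 UMIs in 117 old cells. In the young library other epithelial and PT cells could not be separated, while in the old library PT cells were higher by log2 2.15 (1.57–2.79).

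The *Il34* level of PT cells differed far more between cells with Y-linked and cells with *Xist* transcripts than between tubule segments. PT cells with Y-linked and no *Xist* UMIs had 7.74 CPM (7.14–8.38) in the young against 55.0 CPM (52.8–57.3) in the old library. Those with *Xist* and no Y-linked UMIs had 0.627 CPM (0.271–1.24) from 8 UMIs and 3.47 CPM (2.37–4.90) from 32 UMIs. Within each library the former were higher, by 12.4-fold in the young and 15.9-fold in the old. The old over young ratio was log2 2.83 (2.70–2.96) within the former and 2.47 (1.32–3.80) within the latter. Y-linked cells without *Xist* made up 55.5% of young and 49.6% of old PT cells. The part of this mix in the ratio between the libraries was not tested. The *Xist* values rest on 789 young and 562 old cells.

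By segment, PT cells with S3 markers had 11.8 CPM (10.5–13.2) of *Il34* in the young against 53.1 CPM (48.4–58.2) in the old library, against 3.38 CPM (2.93–3.88) and 33.9 CPM (32.1–35.8) in cells with S1 or S2 markers. S3 cells were higher by log2 1.80 (1.54–2.07) in the young and 0.65 (0.49–0.80) in the old library. Among Y-linked cells without *Xist*, the difference remained in the young library at 1.43 (1.14–1.72) and was 0.02 (−0.15 to 0.19) in the old library. *Il34* was also higher in PT cells with more of the injury markers *Havcr1*, *Krt20*, *Vcam1* and *Hbegf*. In PT cells with 0, 1 and at least 2 of these 4 markers, old *Il34* levels were 34.4, 44.3 and 84.8 CPM and young levels were 5.45, 6.71 and 11.1 CPM. The depth of these cells moved with the markers, from medians of 11298 to 26284 UMIs in the old and 9257 to 31572 UMIs in the young library. These cells were not split further by segment or sex-linked transcripts. The part of depth, segment and sex-linked transcripts in the result was not tested.

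*Csf1* in PT cells was low but differed by library. There were 27 *Csf1* UMIs in 6405 young PT cells, 0.238 CPM (0.157–0.346), and 174 UMIs in 3595 old PT cells, 2.63 CPM (2.26–3.06), a log2 ratio of 3.47 (2.88–4.11). B cells had 2.38 CPM (0.490–6.94) and 4.17 CPM (1.35–9.72) from 3 and 5 UMIs, and neither PT level exceeded that of B cells in the same library. B cells were shallower, at medians of 3776 and 5939.5 UMIs against 14773 and 15355 in PT cells. With few UMIs and unlike depth, this comparison cannot show how much of the PT level is free RNA. The part of free RNA in the *Csf1* of PT cells was not tested. The old UMIs were unevenly spread, with 0.750 CPM (0.470–1.14) in cells without an injury marker, 2.25 CPM (1.76–2.84) in cells with 1 and 15.8 CPM (12.5–19.6) in the 182 cells with at least 2. The last level lay above the old B cell interval of 1.35 to 9.72 CPM, and exceeded that of cells without a marker by log2 4.39 (3.70–5.14). It came from 23 cells, 1 of which held 26 of the 81 UMIs, and without that cell the level was 10.8 CPM (8.11–14.0), which overlaps the B cell interval. The 161 young cells with at least 2 markers had 2 *Csf1* UMIs, 0.357 CPM (0.0432–1.29). Other epithelial cells had 1 *Csf1* UMI in the young and 34 in the old library, 2.56 and 13.8 CPM.

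**Figure D3:**
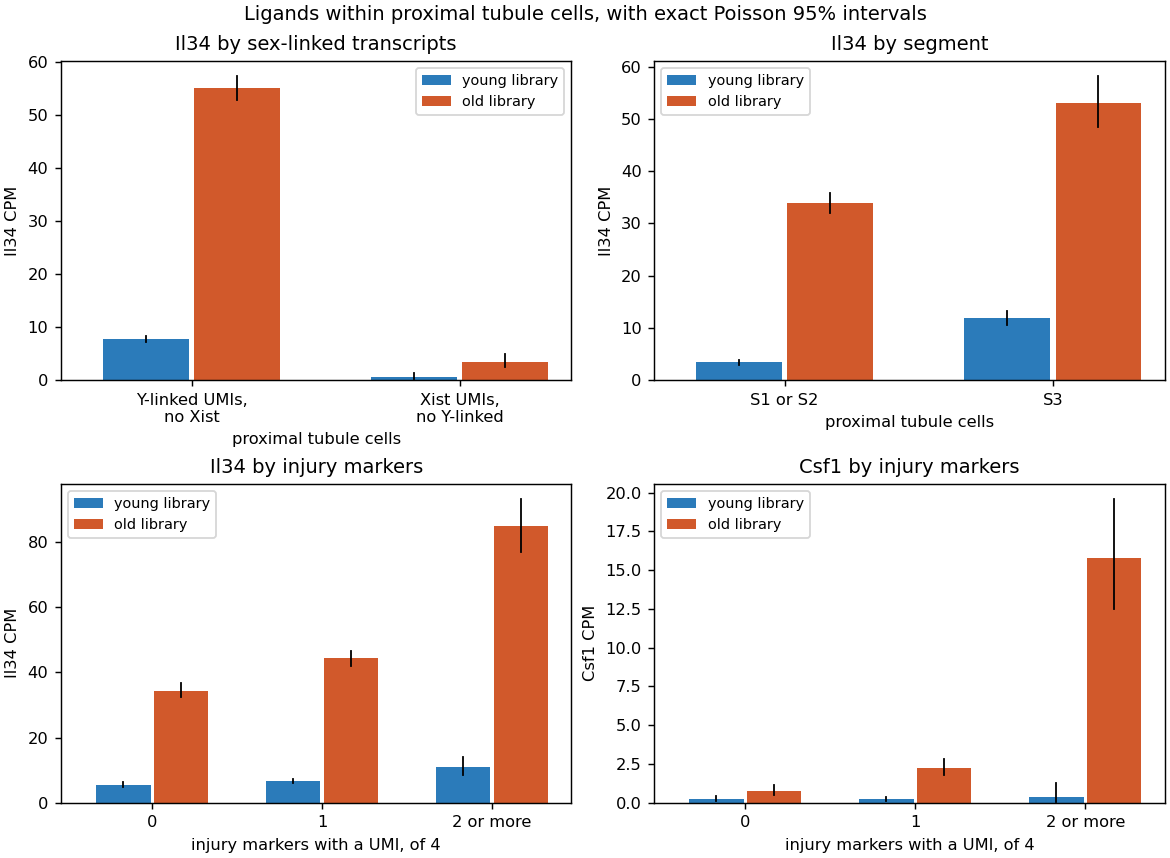
Ligand levels within PT cells as CPM, in bars that start at 0, with exact Poisson 95% intervals, for the young (blue) and old (orange) library. The panels show *Il34* by sex-linked transcripts (upper left), by segment (upper right) and by the number of 4 injury markers with a UMI (lower left), and *Csf1* by injury markers (lower right). *Il34* is highest in old Y-linked cells without *Xist* (55.0) and in old cells with at least 2 injury markers (84.8), and *Csf1* reaches 15.8 CPM in the latter.

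*Flt3l* (ENSMUSG00000110206; chromosome 7, 45129788 to 45136432, minus strand) overlaps the counted gene *Gm45713* on the same strand, which can share its reads. It was a lymphocyte transcript. ILC2s had 49.1 CPM (44.3–54.3) in the young against 67.8 CPM (56.3–81.0) in the old library, log2 0.47 (0.16–0.76). T cells had 49.3 CPM (40.7–59.3) and 42.4 CPM (39.7–45.2), and the ratio of −0.22 (−0.50 to 0.08) spanned 0. NK or ILC1 cells had 26.8 CPM (15.0–44.2) and 40.8 CPM (31.5–52.0), and B cells had 15.1 CPM (9.06–23.5) and 22.5 CPM (14.8–32.7). ILC2s and T cells could not be ordered in the young library (log2 0.01, −0.31 to 0.31), while ILC2s were higher in the old library (0.68, 0.39–0.95). PT cells had 0.423 and 0.530 CPM and neutrophils had no *Flt3l* UMI in either library. ILC2s held 44.4% and T cells 13.1% of young *Flt3l* UMIs, against 8.40% and 64.4% in the old library.

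**Figure D4:**
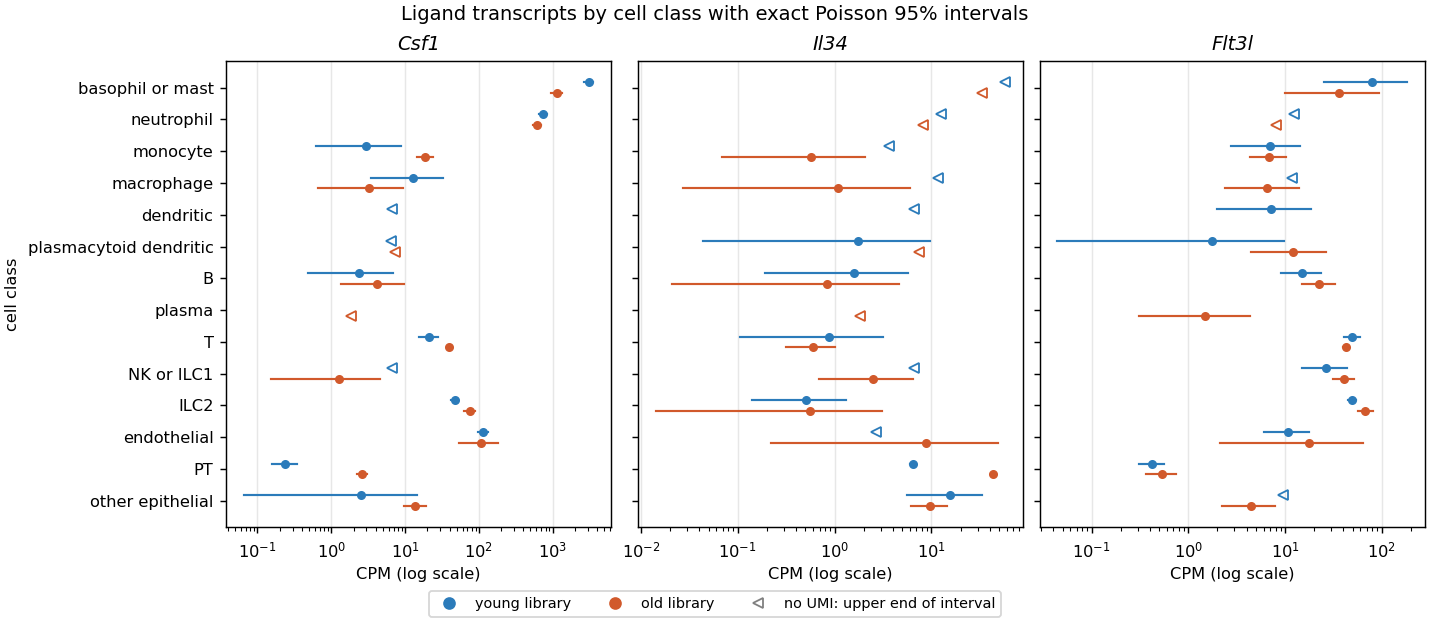
Levels of the 3 ligand genes by class on a log axis of CPM, for the young (blue) and old (orange) library, with exact Poisson 95% intervals. Open triangles mark classes without a UMI, placed at the upper end of the interval. *Csf1* spans from 0.238 CPM in young PT cells to 3091 CPM in young basophil or mast cells, *Il34* separates between libraries in PT cells (6.50 and 43.0), and *Flt3l* is highest among well-counted classes in ILC2s and T cells.

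*Csf1r* (ENSMUSG00000024621; chromosome 18, plus strand), the receptor of both CSF-1 and IL-34, marked macrophages and monocytes, and their order differed by library. Macrophages, gated on C1q genes, *Adgre1* and *Cd68*, had 798 CPM (702–903) over 62 young cells and 574 CPM (526–625) over 47 old cells, log2 −0.48 (−0.70 to −0.25). Monocytes had 540.1 CPM (496–587) over 118 young cells and 824 CPM (794–855) over 286 old cells, log2 0.61 (0.48–0.74). Macrophages exceeded monocytes in the young library by log2 0.56 (0.34–0.78), and monocytes exceeded macrophages in the old library by 0.52 (0.39–0.66). A *Csf1r* UMI was found in 88.7% and 93.6% of macrophages and in 97.5% and 97.6% of monocytes. Macrophages had medians of 4530 UMIs in the young and 14674 UMIs in the old library, a depth difference whose part in the result was not tested. Neutrophils had 129 CPM (91.1–177) and 126 CPM (95.2–163), log2 −0.04 (−0.65 to 0.60).

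Among monocytes, cells with no UMI of *F13a1* or *Chil3*, genes of classical monocytes, had more *Csf1r*. They had 736 CPM (643–839) over 46 young cells and 1041 CPM (994–1089) over 184 old cells, against 455 CPM (406–508) and 601 CPM (565–639) in cells with either gene. The split was chosen after values were seen. Cells without either gene were 46 of 118 young and 184 of 286 old monocytes. The old over young ratio was log2 0.50 (0.30–0.71) without and 0.40 (0.22–0.59) with these genes. Both intervals overlapped that over all monocytes, and the part of this mix in the ratio was not tested. Old monocytes also held 66 *Csf1* UMIs, 18.7 CPM (14.5–23.8), against 3 UMIs in young monocytes, 2.97 CPM (0.613–8.69), a log2 ratio of 2.66 (1.05–4.97). These came from 13 of 286 cells, 1 of which held 22, and without it the level was 12.6 CPM (9.15–16.9).

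PT cells also held *Csf1r* UMIs at a level far below that of macrophages. There were 768 UMIs in young PT cells, 6.77 CPM (6.30–7.27), and 194 in old PT cells, 2.94 CPM (2.54–3.38), log2 −1.21 (−1.44 to −0.98), and B cells had 1 UMI in each library. In S3 cells the level was 16.7 CPM (15.1–18.3) in the young against 5.12 CPM (3.73–6.85) in the old library, and in S1 or S2 cells 2.90 CPM (2.49–3.37) and 2.35 CPM (1.88–2.89). The old over young ratio was log2 −1.70 (−2.18 to −1.26) in S3 cells and −0.31 (−0.70 to 0.07) in S1 or S2 cells. Myeloid transcripts moved with *Csf1r* in these cells. In PT cells with and without a *Csf1r* UMI, *Lyz2* was 27.7 against 3.60 CPM in the young and 41.8 against 6.01 CPM in the old library, *Tyrobp* 7.41 against 2.99 CPM and 23.8 against 2.58 CPM, and *Spi1* 2.39 against 0.331 CPM and 6.75 against 0.162 CPM. The macrophage gene *C1qa* had no UMI in the 542 young and 161 old PT cells with *Csf1r*, and *Hmgxb3*, which overlaps *Csf1r* on the other strand, was 13.9 against 14.4 CPM and 17.5 against 11.9 CPM. The part of myeloid RNA in the *Csf1r* of PT cells was not tested.

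*Csf2ra* (ENSMUSG00000059326; chromosome 19, 61223957 to 61228429, minus strand) had a broad myeloid range. Macrophages had 372 CPM (308–446) in the young against 264 CPM (232–299) in the old library, log2 −0.49 (−0.82 to −0.16). Monocytes had 290.3 CPM (258–326) and 272 CPM (255–289), and neutrophils 190 CPM (143–246) and 218 CPM (177–266), and both ratios spanned 0. Young macrophages were above young monocytes by log2 0.36 (0.04–0.67). In the old library monocytes and macrophages could not be ordered, nor could macrophages and neutrophils, and monocytes were not compared with neutrophils. The 35 young dendritic cells had 144 CPM (115–180), and plasmacytoid dendritic cells had 33.2 CPM (19.99–51.9) and 40.2 CPM (24.5–62.0). ILC2s had 9.85 CPM (7.77–12.3) and 14.0 CPM (9.07–20.7), above PT cells at 1.93 CPM (1.68–2.20) and 2.42 CPM (2.06–2.83). Such levels were not particular to ILC2s. B cells had 7.92 CPM (3.80–14.6) and 15.8 CPM (9.53–24.7), and NK or ILC1 cells 5.36 CPM (1.11–15.7) and 9.42 CPM (5.27–15.5). Other epithelial cells had 7.69 CPM (1.59–22.5) and 18.6 CPM (13.6–24.8).

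*Csf2rb* (ENSMUSG00000071713; chromosome 15, 78325752 to 78353847, plus strand) was highest, like *Csf1*, in basophil or mast cells. All 14 young cells had a UMI and together 753 CPM (555–999), and 10 of 11 old cells had one, 528 CPM (401–682). The class exceeded the next class, neutrophils, by log2 1.94 (1.36–2.52) in the young library, and monocytes by 0.80 (0.39–1.18) in the old library. In the other 4 myeloid classes compared between libraries the old level was above the young one with an interval that excluded 0. Plasmacytoid dendritic cells had 108 CPM (83.1–139) and 227 CPM (187–273), log2 1.07 (0.61–1.54). Macrophages had 82.7 CPM (54.0–121) and 154 CPM (130–182), log2 0.90 (0.29–1.56). Monocytes had 175 CPM (150.5–203) and 303 CPM (285–322), log2 0.79 (0.56–1.03), and neutrophils 197 CPM (149–254) and 279.9 CPM (233–333), log2 0.51 (0.05–0.98). *Csf2rb2* is a near-identical copy, and reads can be split or lost between the copies, so these levels are uncertain. *Csf2rb2* itself had 62.9 and 159 CPM in plasmacytoid dendritic cells, log2 1.33 (0.75–1.94), and 18.8 and 42.0 CPM in monocytes, log2 1.16 (0.46–1.93).

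*Csf3r* (ENSMUSG00000028859; chromosome 4, 126024550 to 126044440, plus strand) was a neutrophil transcript. Neutrophils had 2623 CPM (2441–2814) in the young against 2510 CPM (2367–2661) in the old library, log2 −0.06 (−0.20 to 0.07). A UMI was found in 98.4% and 98.3% of neutrophils, and after thinning in 90.9% and 84.6%. Monocytes followed with 124 CPM (103–148) and 148 CPM (135.5–161), and macrophages with 54.1 CPM (31.5–86.5) and 89.5 CPM (71.3–111). Neutrophils exceeded monocytes by 21.2-fold in the young and 16.97-fold in the old library, while PT cells had 0.203 and 0.197 CPM. Monocytes with UMIs of both *Csf3r* and *Csf1r* were 56.8% of the young and 72.0% of the old ones. Nearly all monocytes had *Csf1r*, so these shares lie close to those with *Csf3r*, 56.8% and 73.1%, and show no association. Of neutrophils, 29 of 122 young and 33 of 119 old cells had UMIs of both genes.

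*Flt3* (ENSMUSG00000042817; chromosome 5, 147330741 to 147400489, minus strand, overlapping *Gm26597* on the other strand) was a dendritic cell transcript. Plasmacytoid dendritic cells had 150.3 CPM (120.2–186) over 68 young cells and 151 CPM (119–189) over 46 old cells, log2 0.00 (−0.46 to 0.47). The 35 young dendritic cells had 148 CPM (118–184), and only 6 dendritic cells were found in the old library. B cells had 10.3 CPM (5.48–17.6) from 13 UMIs and 22.5 CPM (14.8–32.7) from 27 UMIs, log2 1.13 (0.12–2.21). No T or NK or ILC1 cell had a *Flt3* UMI, and PT cells had 6 UMIs in the young library and 2 in the old.

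The ratios between libraries are read against all genes of the same class with at least 50 UMIs over both libraries, by the share whose log2 ratio was at least 1 in size. In PT cells that share was 6.62% of 13357 genes, and 3 of the 6 measured members passed it, *Csf1* and *Il34* upward (3.64% of genes) and *Csf1r* downward (2.98%). The *Csf1* levels counted here did not exceed those of B cells, which rest on 3 and 5 UMIs in shallower cells. *Csf1r* did not pass when each cell was put in the class of its highest marker score (−0.51). Nor did it pass in cells with *Xist* and no Y-linked UMIs (−0.66). In monocytes 1 of 5 measured members passed, *Csf1*, against 7.77% of genes in either direction, and in plasmacytoid dendritic cells 1 of 2, *Csf2rb*, against 1.8%. A stricter gate left 4 young and 8 old plasmacytoid dendritic cells, and the marker score 23 and 17. Those were too few for a ratio, so *Csf2rb* there was not checked against other definitions of the class. None passed of 3 in ILC2s (5.65% of genes), 3 in T cells (11.4%), 1 in NK or ILC1 cells (4.14%), 4 in macrophages (20.3%) and 5 in neutrophils (8.57%). No member was measured at this minimum in B cells (8.36%) or other epithelial cells (10.6%). The median log2 ratio of the measured members was 0.61 in monocytes, against 0.02 for all genes, 0.33 in PT cells against 0.01, 0.13 in macrophages against 0.08, −0.04 in neutrophils against −0.12, 0.51 in ILC2s against −0.04 and −0.22 in T cells against 0.05.

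**Figure D5:**
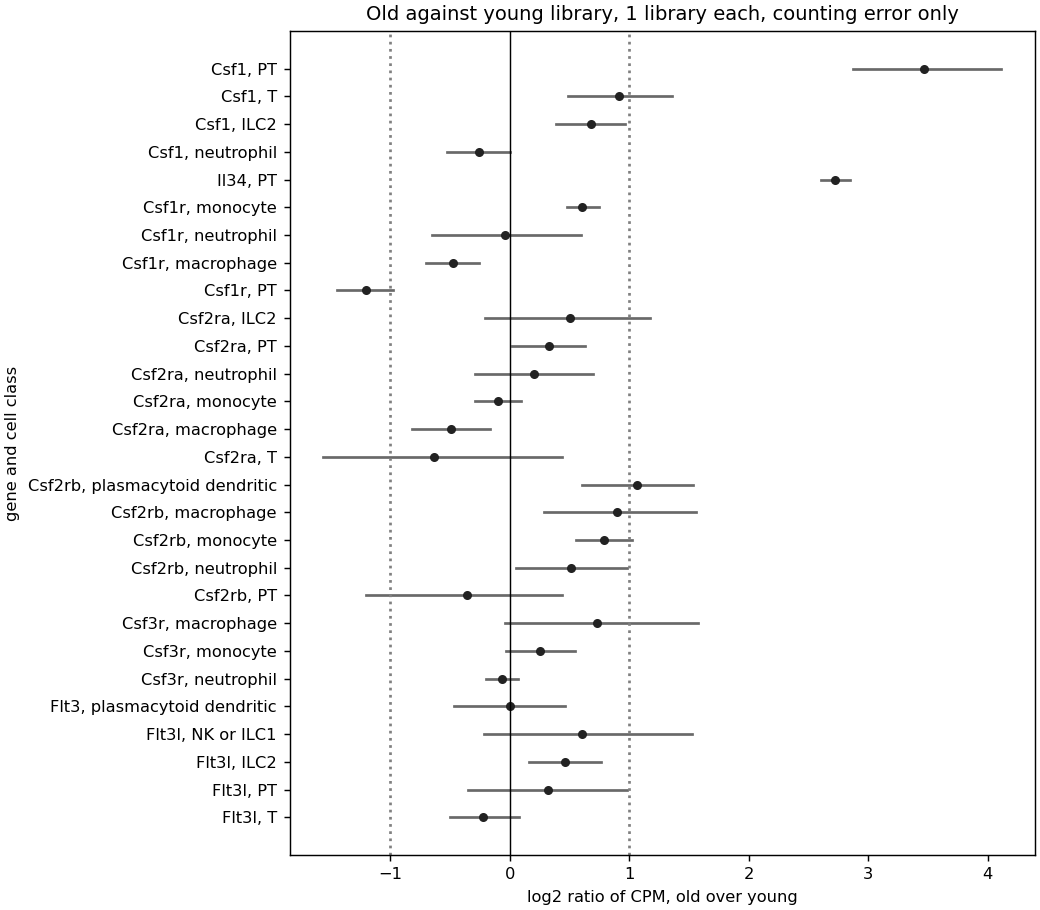
Log2 ratio of CPM, old over young, for each gene and class with at least 20 cells in each library, 50 UMIs over both libraries and more than 3 UMIs in each, which leaves out *Csf1* in monocytes. Points are ratios of 1 library each, lines are exact binomial 95% intervals, and dotted lines mark a log2 ratio of 1 in size. *Csf1* (3.47) and *Il34* (2.73) in PT cells lie farthest to the right, and *Csf1r* in PT cells (−1.21) farthest to the left. The PT levels of *Csf1* did not exceed those of B cells, which rest on 3 and 5 UMIs in shallower cells.

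The 25 related genes of the same pathways were also read against a log2 ratio of 1, with the share of all genes of the class beside each count. In PT cells 4 of 20 measured genes passed, against 6.62% of all genes. *Stat3*, a transcription factor downstream of cytokine receptors, was higher in the old library, at 16.4 and 40.1 CPM. *Irf8* (16.1 and 39.5 CPM) and *Kit* (0.617 and 1.35 CPM) were also higher, and *Csf2* (0.441 and 0.0605 CPM) was lower. *Kit* there rested on 70 and 89 UMIs and *Csf2* on 50 and 4. ILC2s had 65.7 and 45.95 CPM of *Kit* and 254 and 204 CPM of *Csf2*. B cells had 0 and 4 *Kit* UMIs and 3 and 0 *Csf2* UMIs. The part of free RNA in these low PT levels was not tested. In macrophages, where 20.3% of genes passed, *Klf4*, a transcription factor of monocytes, passed and was lower in the old library, at 620.0 and 228 CPM (log2 −1.45, −1.73 to −1.16). In monocytes 2 of 16 passed, *Csf2rb2* and *Adam17*, against 7.77% of genes. *Adam17*, a sheddase of cell surface proteins that include CSF-1 and CSF-1R, had 104 and 223 CPM (log2 1.10, 0.80–1.41). In T cells 1 of 16 passed, against 11.4% of genes. It was *Sdc1*, a proteoglycan that binds IL-34, with 1 young and 634 old UMIs, 0.437 and 29.0 CPM (log2 6.05, 3.57–11.4). In plasmacytoid dendritic cells 1 of 12 passed (1.8% of genes), *Csf2rb2* as above, and in B cells 1 of 11 (8.36%), *Tyrobp*, at 56.2 and 21.7 CPM. None passed of 15 in ILC2s (5.65%), 12 in NK or ILC1 cells (4.14%), 8 in neutrophils (8.57%) and 8 in other epithelial cells (10.6%). The ligand of the *Csf2ra* and *Csf2rb* chains, *Csf2*, was an ILC2 transcript with 254 CPM (243–266) in the young against 204 CPM (184–226) in the old library, against 2.88 CPM in old T cells. *Kitl*, the ligand of the receptor KIT, was highest in young endothelial cells at 458 CPM (423–495).

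The genes most like each member were sought by Pearson correlation of log2(CPM + 1) over 14 points, the 7 classes with at least 50 cells in each library, among genes with at least 500 UMIs that are no gate marker. These points share libraries and depth, and the basophil or mast class and the macrophages, in which *Csf1r* and *Csf2ra* were highest in the young library, are not among them. *Csf1* was most like *Cd101* (0.958), *Adam8* (0.908) and *Asxl1* (0.906), and *Csf3r* most like *Trem1* (0.994), *C5ar1* (0.990) and *Cd300lb* (0.988). *Csf1r* was most like *C3* (0.976), *Treml4* (0.975) and *Cd300ld* (0.973), *Csf2ra* most like *Lst1* (0.980), *Alox5ap* (0.970) and *Pla2g7* (0.963), and *Csf2rb* most like *Tgfbi* (0.991), *Pira2* (0.988) and *Wfdc17* (0.985). *Il34* was most like *Cyp2d12* (0.944), *Kank2* (0.936) and *Gm16685* (0.934), *Flt3l* most like *Xlr4b* (0.985), *Cers4* (0.984) and *Snrnp70* (0.981), and *Flt3*, whose plasmacytoid dendritic class is also not among the points, most like *Pkib* (0.943), *H2-Ob* (0.927) and *Cd180* (0.926).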

How the data were processed

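The scRNA-seq libraries of old and young MRL-lpr kidneys held 126334256 and 156787812 UMIs. The authors aligned reads to mm10 with Cell Ranger 3, named as 3.1.0 in the file headers, and deposited UMI counts per gene and barcode, not normalized. The 8 members, the marker lists and the 25 related genes were chosen with earlier results of these data known. Class levels were computed as CPM of summed counts, with exact Poisson intervals, shares with exact Clopper-Pearson intervals and ratios of 2 sums with exact binomial intervals, all at 95%, which cover counting error only.

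The limits on cells were 200 genes and 20% mitochondrial UMIs. The gate of 3 markers, the minimum of 10 cells for a level and the monocyte split were set after marker counts or values were seen. Cells that Scrublet called doublets, 332 young and 270 old, stayed in. Cells were thinned to 1000 UMIs with seed 7, leaving out shallower cells. Ratios needed 20 cells in each library. With 1 library per age no p-value was computed. Apart from markers and genes that describe a class, the genes named are the members, the related genes and, per member, the 3 genes of highest correlation. The values of a further related gene are not reported here. The ratio step was tested on simulated counts of 10700 genes in T cells, where 98.4% of 200 genes changed 3-fold passed a log2 ratio of 1, against 1.6% of the others. The simulated counts held counting error only and no difference between mice. The 1.6% is therefore no error rate for the ratios of these libraries.

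Gene positions are from GENCODE M21 on GRCm38. Software was Python 3.11.15 with Scanpy 1.11.5, pandas 2.3.3, NumPy 2.4.6, Matplotlib 3.10.9 and SciPy 1.17.1. The alternatives were a stricter gate, a score gate, limits of 10% mitochondrial UMIs or 500 genes, doublets removed, the mean of each cell's CPM, abundant genes left out of the total, cells with only Y-linked or only *Xist* UMIs, thinning to 500 or 2000 UMIs or none, and other minimum counts and thresholds for the background. Counting neutrophil and monocyte gated cells as neutrophils, whether or not they passed a further gate, and leaving out shared barcodes were chosen after seeing the data.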

Additional observations from a re-analysis of the deposited data

Results flagged for a closer look

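Between classes, ratios of the same gene ran in opposite directions, and these differences were not tested. *Csf1r*, old over young, was log2 0.61 in monocytes, −0.48 in macrophages and −1.21 in PT cells. *Csf2ra* was 0.33 in PT cells and −0.49 in macrophages, but the former was −0.08 with the mean of each cell's CPM.

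Within T cells, *Csf1* was log2 1.12 in *Cd4* cells and 1.51 in *Cd8* cells but −1.04 in cells with neither coreceptor. *Flt3l* was 0.82 in *Cd4* cells and −1.31 in cells with neither. In each case the intervals of the opposite ratios excluded 0, with 1 library per age.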

How the results depend on the processing

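No paired analysis was possible because each age has 1 library. Of 35 ratios between the libraries, 20 kept their sign under every alternative that gave a value. The main ratios of each gene kept their sign except *Flt3* in plasmacytoid dendritic cells, near 0 throughout (−0.005 to 0.05), and *Csf3r* in neutrophils, which was log2 0.17 under the stricter gate, −0.21 under the score gate and −0.31 with neutrophil and monocyte gated cells counted as neutrophils, chosen after seeing the data. With *Xist* cells alone the ratio was 1.21 for *Csf1* in ILC2s, 1.71 for *Csf1* in T cells, 2.47 for *Il34* and −0.66 for *Csf1r* in PT cells and 1.06 for *Csf2rb* in monocytes, and with Y-linked cells alone it was 0.18 for *Csf1* in ILC2s. The score gate gave 1.74 for *Csf1* and −0.51 for *Csf1r* in PT cells, and the stricter gate −0.74 for *Csf1r* in macrophages. The cause was not tested. Under the alternatives *Csf1* in PT cells ranged from 1.74 to 3.66, *Il34* from 2.47 to 2.83 and *Csf1r* in monocytes from 0.48 to 0.87. With neutrophil and monocyte gated cells counted as neutrophils, also those of a further gate, neutrophil *Csf1* was 321 and 260.0 CPM and *Csf3r* 1175 and 948 CPM. In PT cells 884 genes passed a log2 ratio of 1 and 304 passed 2, while 1906 passed a 1.5-fold ratio and a minimum of 20 UMIs gave 1334 genes and one of 200 gave 483. Depth limits classes with few UMIs, such as macrophages and the basophil or mast class, and no setting supplies the missing replicates.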

Other observations

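Cells that passed the gates of several classes were left out of the class values, and they held a large part of the receptor UMIs. They held 28.8% of young and 34.1% of old *Csf1r* UMIs and 42.7% and 41.9% of *Csf3r* UMIs. Cells that passed the neutrophil and monocyte gates and no other numbered 26 in the young and 38 in the old library, and Scrublet called none of them doublets. They had 632 and 750.1 CPM of *Csf1r*, 582 and 789 CPM of *Csf3r*, and 165 and 158 CPM of *Csf1*. Their *Csf1r* lay within the range of monocytes and macrophages, and their *Csf3r* and *Csf1* lay between those of neutrophils and monocytes.

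Receptor genes were often found in the same monocyte. Of 118 young and 286 old monocytes, 55.9% and 75.9% had UMIs of both *Csf2ra* and *Csf2rb*, and 62.7% and 83.9% of both *Csf1r* and *Csf2rb*. Nearly all monocytes had *Csf1r*, so the latter shares lie close to those with *Csf2rb*, 63.6% and 85.7%, and show no association. Old monocytes were deeper, at a median of 10894.5 against 8240.5 UMIs, and the part of depth in these shares was not tested. In ILC2s, *Csf1* and *Csf2* UMIs occurred together in 125 of 1387 young and 35 of 320 old cells. A *Csf2* UMI was found in 42.5% of young ILC2s with *Csf1* and in 39.4% of those without, and in 37.2% and 27.0% of the old ones. In PT cells a *Csf1r* UMI was found in 19.3% of young cells with *Il34* and 7.50% of those without, against 6.71% and 3.15% in the old library. PT cells differed in depth, and both genes were higher in S3 than in S1 or S2 cells. The part of depth and segment in these shares was not tested.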
